A study of Mus musculus with 145 samples.

Results

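The genes that set how a cell takes up, makes, binds, reads and clears retinoic acid were followed through the reprogramming of mouse spermatogonial stem cells (SSCs) towards pluripotency. They were chosen by name, as 8 of the 24615 genes in the single-cell count table, and all 8 were among the 20030 genes that passed the filter on low counts. Crabp1 and Crabp2 encode the cellular retinoic acid-binding proteins, Rarb and Rarg encode retinoic acid receptors, Aldh1a2 encodes the dehydrogenase that makes retinoic acid from retinaldehyde, Stra6 encodes the membrane receptor that takes up retinol from its carrier in blood, and Cyp26a1 and Cyp26b1 encode cytochrome P450 enzymes that degrade retinoic acid.

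Retinoic acid enters the nucleus, where heterodimers of its receptors with retinoid X receptors sit on response elements in DNA and switch from recruiting corepressors to recruiting coactivators when the ligand binds. The binding proteins hold the ligand in the cytoplasm and hand it either to the receptors or to the degrading enzymes. In the testis retinoic acid drives spermatogonia into differentiation and meiosis, with Stra8 as its best known target, while in the embryo it patterns the axis through Hox genes and is kept out of some tissues by the Cyp26 enzymes.

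Per the GENCODE vM21 annotation of GRCm38 (mm10), all 8 are protein-coding genes. Crabp1 lies at chr9:54764748-54773110, Aldh1a2 at chr9:71215789-71296243 and Stra6 at chr9:58063788-58153996, all on the forward strand. Crabp2 lies at chr3:87948666-87953376 and Cyp26a1 at chr19:37697798-37701536, also on the forward strand. Cyp26b1 lies at chr6:84571414-84593908, Rarb at chr14:16430839-16819156 and Rarg at chr15:102234938-102257517, all on the reverse strand. The annotated span of Rarb overlaps the end of Top2b on the other strand, that of Stra6 overlaps Ccdc33 on the other strand, and that of Aldh1a2 overlaps Gm48124 on the other strand. The sources used here do not give how strand was handled in counting, so reads of these overlaps cannot be told apart.

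Retinoic acid receptors bind direct repeats of a hexamer, and the repeat with a spacer of 5 bases is the arrangement best known for them. RefSeq promoter windows (GRCm38.p6) were at hand for 7 of the 8 members, in 11 entries, and none for Crabp2. In the 250 bases before the annotated start on either strand, a direct repeat of any pair of 4 half-sites, spaced by 5, was found among these entries only in the windows of Rarb and Cyp26a1. The same arrangement was found in 29 of 32851 RefSeq windows (0.0883%). Single half-sites were common. The half-site AGTTCA was found in 11.8% of all windows, the half-site GGTTCA in 8.85%, the half-site AGGTCA in 14.02% and the half-site GGGTCA in 11.6%. Their overlaps with other motifs were not removed. The Rarb window at chr14:16575477-16575726 (reverse strand) held the repeat 53 to 37 bases before the start, and the Cyp26a1 window at chr19:37697558-37697807 (forward strand) held it on the other strand 32 to 16 bases before the start. Both are printed 5′ to 3′ because they belong to a receptor and a clearing enzyme whose levels are given in this report, with the repeat in capitals. A match describes the letters of the window and not binding.
Rarb: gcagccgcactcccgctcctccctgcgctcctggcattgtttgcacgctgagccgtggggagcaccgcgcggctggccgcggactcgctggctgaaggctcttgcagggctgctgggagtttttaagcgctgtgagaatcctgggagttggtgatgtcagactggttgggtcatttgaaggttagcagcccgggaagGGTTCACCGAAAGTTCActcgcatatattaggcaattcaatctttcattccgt
Cyp26a1: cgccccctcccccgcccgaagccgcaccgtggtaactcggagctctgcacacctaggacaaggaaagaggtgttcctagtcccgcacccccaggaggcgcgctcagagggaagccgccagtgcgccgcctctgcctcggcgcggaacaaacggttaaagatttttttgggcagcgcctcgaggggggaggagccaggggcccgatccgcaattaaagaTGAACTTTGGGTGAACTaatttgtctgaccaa

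The SSCs came from postnatal male pups of transgenic C57BL/6 females (Oct4-EGFP or EGFP) mated with DBA/2 males, and grew on mouse embryonic fibroblast feeders with EGF, bFGF, GDNF and ESGRO. In the first data set, single cells were taken with no chemical on 10 days between 0 and 27 and sequenced by modified STRT-seq, giving 46 libraries and 4339 cells. A library of germline-derived pluripotent stem cells (gPSCs) at passage 1 (48 cells), another at passage 15 (32 cells) and a library of embryonic stem cells (45 cells) complete the table. The study kept gPSCs and embryonic stem cells on feeders in N2B27 medium with inhibitors and ESGRO, and not in the SSC medium. In the second data set, scTrio-seq2 read RNA from 8 samples treated with 5C (SGC707, vitamin C, EGCG, Daphnetin and TUDCA, 724 cells) and from 5 samples given the vehicle DMSO (365 cells). Cells were picked by mouth pipette from colonies that looked like SSCs or like pluripotent cells, so shares of classes follow the picking.

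The study assigned each cell to a class, and those names are used here. SSC1 to SSC4 (called SSC together) are spermatogonial. RPG1 to RPG4 are reprogramming cells on the branch that reaches pluripotency, and fibroblast, meiotic and neural are side classes. UMIs were summed over the cells of 1 class in 1 library where it held at least 5 such cells, which gave 82 sums. There were 36 of SSC, 5 of fibroblast, 6 of meiotic, 12 of neural, 7 of RPG1, 3 of RPG2, 8 of RPG3, 2 of RPG4 and 3 of early-pluripotent cells. Levels are given as CPM, the usual share of a gene in all UMIs of the sum, with no scaling factor. Fold changes come from edgeR's quasi-likelihood test with TMM scaling, and a gene was taken as called where its p, adjusted by Benjamini-Hochberg over all genes tested, lay under 0.05. The classes were drawn from the same transcriptomes, so these tests describe how the classes differ and are not independent of how they were made. The labels do not say that libraries came from separate animals or cultures, so p-values measure the spread between libraries.

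Library totals ran from 15975410 to 34609591 UMIs in the reprogramming libraries, and sums from 433094 to 34168335 UMIs in SSC. Summed over the 3 SSC markers Zbtb16, Dazl and Dmrt1, SSC stood at 903 to 1739 CPM while RPG2 held 122 to 203 CPM, RPG3 held 74.96 to 195 CPM and RPG4 held 60.4 to 90.1 CPM. The pluripotency markers Pou5f1, Nanog and Sox2 summed to 3.28 to 92.4 CPM in SSC and 37.4 to 184 CPM in RPG1. They reached 573 to 705 CPM in RPG2, then stood at 374 to 604 CPM in RPG3 and 207 to 317 CPM in RPG4. Fibroblast sums held SSC markers at 826 to 1165 CPM beside fibroblast markers at 44.7 to 833 CPM, so these cells were not free of spermatogonial RNA. Meiotic sums held the 4 meiotic markers at 226 to 381 CPM, inside the 34.4 to 381 CPM of SSC.

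Along the successful branch the retinoid genes parted. Crabp1 fell in all 4 RPG classes, and Aldh1a2 fell in RPG2, RPG3 and RPG4. Rarg rose in RPG3 and, by a call that rested on 1 library, in RPG2, but not in RPG4. Its rise in RPG3 was not seen under DMSO in the second data set. Crabp2 fell in RPG1, and Cyp26a1 rose in RPG4, where 1 cell in each library held nearly all of it. Of the 8 members, RPG1 had 2 called, both lower, against 4.61% of all genes called (2.58% higher, 2.03% lower). RPG2 had 3 called, 1 higher and 2 lower, against 36% of all genes (17.5% higher, 18.5% lower). RPG3 had 3, again 1 higher and 2 lower, against 56.8% (25.2% higher, 31.5% lower), and so had RPG4, against 27.7% (12.6% higher, 15.1% lower). As a share, 2 of 8 lay above the background in RPG1, while 3 of 8 lay close to it in RPG2, above it in RPG4 and below it in RPG3. Among the 3 in RPG4 is Cyp26a1, whose call was lost without 1 cell of each library, which leaves Crabp1 and Aldh1a2. The place of RPG4 above the background thus rested on those cells. With 8 members a difference of 1 call moves these shares widely, and the comparisons share the SSC libraries. Medians of the log2 change, taken over all genes tested, lay at -0.05 in RPG1 and -0.52 in RPG2, and at -0.25 in RPG3 and -0.54 in RPG4, against which the members' changes should be read. The signs of the called members in RPG2, RPG3 and RPG4 stayed as given under TMM, DESeq2 size factors and total counts. Outside the branch, Stra6 was called in neural sums (10.7% of all genes called) and no member in fibroblast (5.63%) or meiotic sums (1.86%).

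**Figure D1:**
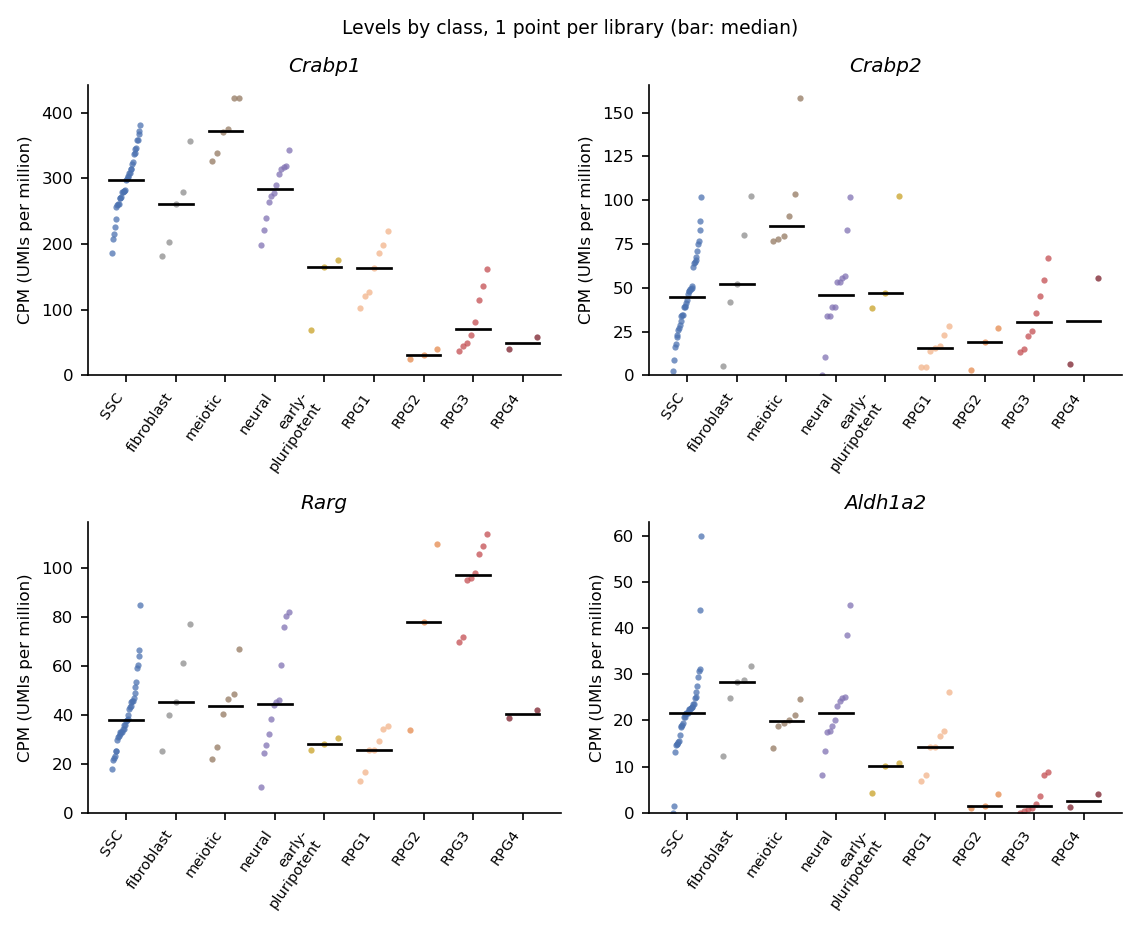
CPM of Crabp1, Crabp2, Rarg and Aldh1a2 (linear y axes) by class (x axis), with 1 point per library and class and a bar at the median. Crabp1 in all 8 RPG3 libraries, at 37.3 to 162 CPM, sits below all 36 SSC libraries, and Rarg in RPG3 sits between 69.6 and 114 CPM.

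Crabp1 was detected in 4366 of 4464 cells. In SSC it ran from 186 to 381 CPM with a median of 298 CPM over 36 libraries. It lay within that range, or above it, in neural sums (198 to 344 CPM, median 284) and meiotic sums (326 to 423 CPM, median 373). In fibroblast sums it stood at 261 CPM on day 8, 203 on day 10, 357 and 279 in day 14 libraries 2 and 4 and 181 on day 27. None of these 3 side classes was called for Crabp1.

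On the branch, Crabp1 stood at 103 to 219 CPM in RPG1 (median 164 over 7 libraries), and 5 of the 7 lay below every SSC library. In RPG2 the 3 libraries held 24.6, 31.7 and 40.4 CPM, and in RPG4 the 2 libraries held 57.98 and 39.5 CPM, all under the lowest SSC library. RPG3 ran from 37.3 to 162 CPM with a median of 70.9, so its highest library nearly reached the lowest of SSC without overlap.

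Against SSC, Crabp1 fell in RPG1 by 0.89 ± 0.17 (SE) on the log2 scale (edgeR adjusted p = 0.00011), in RPG2 by 3.01 ± 0.30 (1.44e-14), in RPG3 by 1.57 ± 0.17 (5.89e-14) and in RPG4 by 2.62 ± 0.35 (2.73e-09). The fitted level was 1.85 times lower in RPG1 and 8.07 times lower in RPG2, with 2.98 times in RPG3 and 6.15 times in RPG4. The fall in RPG2, RPG3 and RPG4 was also called with the library as a block. RPG1, RPG2 and RPG3 each share only 2 libraries with SSC, and in each of these classes Crabp1 was lower in both. RPG4 shares 0, so its blocked value sets it against SSC only through other classes. In RPG1 the blocked value was -0.18 with an edgeR adjusted p of 1, and the block called 0 of 20030 genes there.

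The order along the branch was not steady. Crabp1 was higher in RPG3 than in RPG2 by 1.44 ± 0.28 on the log2 scale (edgeR adjusted p = 0.000336, 5.98% of all genes called), and lower in RPG4 than in RPG3 by 1.05 ± 0.33 (0.0284, 8.93% of all genes called). The first step was lost when sums were made per batch and day (1.57, edgeR adjusted p = 0.0555) or when only these classes were fitted (1.42, 0.0766). The second was lost in many settings. The blocked difference was -0.37 (edgeR adjusted p = 0.62), and without either RPG4 library it was -1.38 (0.0669) or -0.76 (0.454). All 3 RPG2 libraries belong to the batch named B2 in the metadata and both RPG4 libraries to B1, while RPG3 had 37.3 to 162 CPM in 5 B1 libraries and 50.0 to 136 CPM in 3 B2 libraries. Under DMSO in the second data set RPG4 lay the other way from RPG3. Crabp1 stood there at 63.0 and 89.2 CPM in RPG4 (11 cells) against 42.7 and 44.4 CPM in RPG3, which was not tested.

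Among SSC libraries Crabp1 hardly followed the day. The pooled level per day lay between 226 CPM on day 10 and 354 CPM on day 18. By SSC cluster, medians were 320 CPM in SSC1, 312 in SSC2 and 318 in SSC3 but 199 in SSC4, where libraries ran from 59.9 to 344 CPM. The gPSC libraries stood at 14.04 CPM at passage 1 and 15.3 CPM at passage 15, and the embryonic stem cell library at 56.6 CPM, each below all 36 SSC libraries. These lines have 1 library each and so no replicate check. They grew in another medium than the SSCs, so medium and cell state cannot be told apart.

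Crabp2 varied far more between libraries of the same class. SSC libraries ran from 2.28 to 102 CPM (median 44.8), with 2.28 to 63.9 CPM within day 16 alone. RPG1 had 4.84 to 28.1 CPM (median 15.5), below the SSC median in every library but inside the SSC range. The fall was 1.61 ± 0.41 on the log2 scale (edgeR adjusted p = 0.00767), a level 3.05 times lower. It was not held by the library block, where the value was 0.16 (adjusted p = 1), nor by sums per batch and day, 0.66 (0.759), although both shared libraries were lower in RPG1.

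RPG2 held 2.83, 18.9 and 27.3 CPM of Crabp2 and was not called (-1.26 ± 0.59, edgeR adjusted p = 0.0853). It was called with the library as a block (-2.03, adjusted p = 0.0192), with batch as a covariate (-1.77, 0.0204), with total counts (-1.51, 0.0426) and by DESeq2 (-1.27, 0.0467). RPG3 ran from 13.3 to 66.8 CPM and RPG4 held 6.75 and 55.8 CPM, both across the SSC range and neither called. Under DMSO in the second data set RPG4 held 101 and 131 CPM (11 cells) against 9.16 and 14.02 CPM in RPG3, which was not tested. In meiotic sums Crabp2 was at 76.6 to 158 CPM (median 85.5), higher than SSC in all 5 libraries that held both classes. That difference of 1.04 ± 0.35 missed the threshold (edgeR adjusted p = 0.098) and was called with the library block (2.06, adjusted p = 0.0463). No member was called by edgeR in meiotic sums, with 2 at an unadjusted p below 0.05 (Crabp1 and Crabp2), and DESeq2 called 0.

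**Figure D2:**
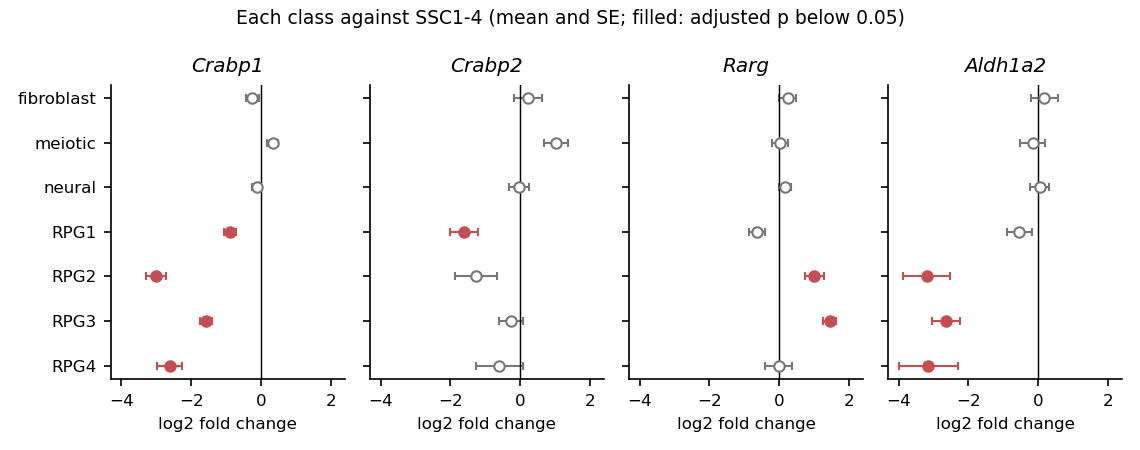
Log2 fold change against SSC (x axis) with its standard error for Crabp1, Crabp2, Rarg and Aldh1a2 in 7 classes (y axis). Filled points passed an adjusted p of 0.05, and the fall of Crabp1 in RPG2, at -3.01, stands farther from 0 than that in RPG3, at -1.57.

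Rarg, a receptor that acts in spermatogonia, was detected in 3788 of 4464 cells. SSC libraries ran from 17.8 to 84.8 CPM (median 37.6). RPG3 libraries ran from 69.6 to 114 CPM (median 96.9), and 6 of the 8 lay above every SSC library. RPG2 held 109 CPM in day 12 library 2, 33.9 in day 14 library 5 and 77.8 in day 14 library 6, so 1 of its 3 libraries lay above every SSC library and the others lay within the SSC range.

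Rarg rose in RPG3 by 1.44 ± 0.19 on the log2 scale (edgeR adjusted p = 1.33e-10), a level 2.72 times that of SSC, and in RPG2 by 1.01 ± 0.28 (0.00298), 2.02 times. Within batches, RPG3 had 69.6 to 114 CPM in B1 against 21.3 to 84.8 in SSC, and 71.8 to 109 CPM in B2 against 17.8 to 35.8. The rise was not seen under DMSO in the second data set. There RPG3 cells held 37.0 and 39.2 CPM, against 35.7 to 49.8 CPM in SSC cells of other DMSO samples. Under 5C RPG3 cells held 18.6 to 110 CPM, against 18.5 to 41.6 CPM in SSC. The 2 classes were not tested against each other there. In the 2 STRT-seq libraries that held both RPG2 and SSC, Rarg was higher in RPG2 in 1 and lower in 1. The RPG2 call rested on day 12 library 2, its smallest sum with 8 cells. Without it the change was 0.74 (edgeR adjusted p = 0.104), and with at least 10 cells per sum 0.70 (0.0831).

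RPG4 lay inside the SSC range for Rarg, with 38.5 and 42.1 CPM, both under all 8 RPG3 libraries. Its difference from SSC was -0.01 ± 0.38 (edgeR adjusted p = 0.985), with a 95% interval from -0.77 to 0.74. Against RPG3 it was lower by 1.46 ± 0.46 (0.0294). That call was lost with the block (-1.39, 0.0835), with total counts (-1.23, 0.0804) and without either RPG4 library (-1.43, 0.243 and -1.48, 0.227), and the 2 RPG4 sums in the fit hold only 21 cells. In RPG1 Rarg stood at 12.8 to 35.5 CPM (median 25.6), a difference of -0.65 ± 0.23 that was not called (0.0831) but was called by DESeq2 (-0.64, 0.0472). Rarg was at 67.9 CPM in gPSCs at passage 1, 27.6 CPM at passage 15 and 38.4 CPM in embryonic stem cells.

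Rarb, a receptor gene that retinoic acid itself switches on, was close to silent. It gave 380 UMIs in 49 of 4464 cells, and 24 of the 36 SSC libraries had none, with 1.76 CPM as the highest. No class comparison called it. The Neural 3 cluster held 20.8% of these UMIs, at 5.98 and 3.19 CPM in its 2 libraries. In the first of these, 1 cell carried 55 of 65 UMIs. Split by cluster in the same way, 1 SSC4 library reached 6.29 CPM (41 UMIs) and 1 Fibroblast 2 library 8.51 CPM (16 UMIs), both above Neural 3.

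Aldh1a2 was detected in 2453 of 4464 cells. SSC libraries ran from 0 to 60.1 CPM (median 21.7), and fibroblast, meiotic and neural medians of 28.3, 19.8 and 21.6 CPM lay close to it. RPG1 kept 6.78 to 26.2 CPM (median 14.2). RPG2 held 1.41, 4.03 and 0.935 CPM, RPG3 ran from 0 to 8.81 CPM (median 1.46) and RPG4 held 3.97 and 1.21 CPM. They overlapped only with the SSC libraries at 0 and 1.36 CPM, since the next lowest SSC library held 13.1 CPM.

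The fall of Aldh1a2 was 3.20 ± 0.68 on the log2 scale in RPG2 (edgeR adjusted p = 8e-05), 2.65 ± 0.40 in RPG3 (2.44e-08) and 3.15 ± 0.84 in RPG4 (0.00228), levels 9.19, 6.26 and 8.90 times lower. The RPG4 call was lost with the library block (-3.11, adjusted p = 0.0803) and without day 20 library 2 (-2.44, 0.141). RPG1 was not called (-0.55 ± 0.35, edgeR adjusted p = 0.43). No difference of Aldh1a2 between RPG3 and RPG2 or between RPG4 and RPG3 was called. Aldh1a2 was at 9.33 CPM in gPSCs at passage 1, 4.71 CPM at passage 15 and 14.99 CPM in embryonic stem cells.

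Stra6 gave 640 UMIs in 100 of 4464 cells, and 65.5% of them came from the 61 cells of the Neural 3 cluster, which hold 1.28% of all UMIs. Across the 12 neural sums it was absent in 8, and stood at 14.7 CPM (401 UMIs) and 4.58 CPM (80 UMIs) in day 27 libraries 1 and 2, the only libraries with Neural 3 cells. No SSC library exceeded 0.835 CPM over its 4 clusters together, and of the single SSC clusters the highest was 10.2 CPM, in an SSC4 sum of 6 cells with 15 UMIs. Neural against SSC was called (4.04 ± 0.77, edgeR adjusted p = 0.000108). The call went with those 2 libraries: it was lost with the library block (0.81, adjusted p = 0.902) and without the Neural 3 cells (2.09, 0.0688), and DESeq2 gave Stra6 no adjusted p. In RPG4, where both sums had no Stra6 UMI and the fit made no call, sums per batch and day turned the direction and passed the threshold (4.49, edgeR adjusted p = 0.0249).

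Within Neural 3, Stra6 was spread over several cells. Day 27 library 1 had it in 14 of 36 cells (32.5 CPM, 25.2 without the cell that held most) and library 2 in 6 of 25 (14.8 CPM, 12.01 without it). Over both libraries 32.8% of Neural 3 cells had a Stra6 UMI (exact 95% interval 21.3 to 46.0%, median depth 234909 UMIs). The share was 23.9% in Neural 2 (16.5 to 32.7%) and 0.733% in SSC1 (0.270 to 1.59%, median depth 149268 UMIs). It was 0.802% in SSC2, 1.62% in SSC3 (0.702 to 3.17%, median depth 378770 UMIs) and 0.881% in SSC4. These intervals cover counting error only.

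Neural 3 was not spermatogonial by its markers, and its name went with only some of them. Its SSC markers summed to 90.5 and 226.8 CPM against at least 903 CPM in SSC. The 4 neural markers of the study summed to 278 and 282 CPM against at most 32.1 CPM in SSC, but the neural stem and neuron markers Pax6, Nes, Tubb3 and Map2 to 37.9 and 64.5 CPM, within the 37.1 to 134 CPM of SSC. The 8 feeder or stromal markers summed to 1053 and 1097 CPM against 15.4 to 163 CPM in SSC, and the 5 Sertoli markers to 241 and 320 CPM against 7.11 to 62.7 CPM. The part of stromal RNA in the Stra6 result was not tested.

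**Figure D3:**
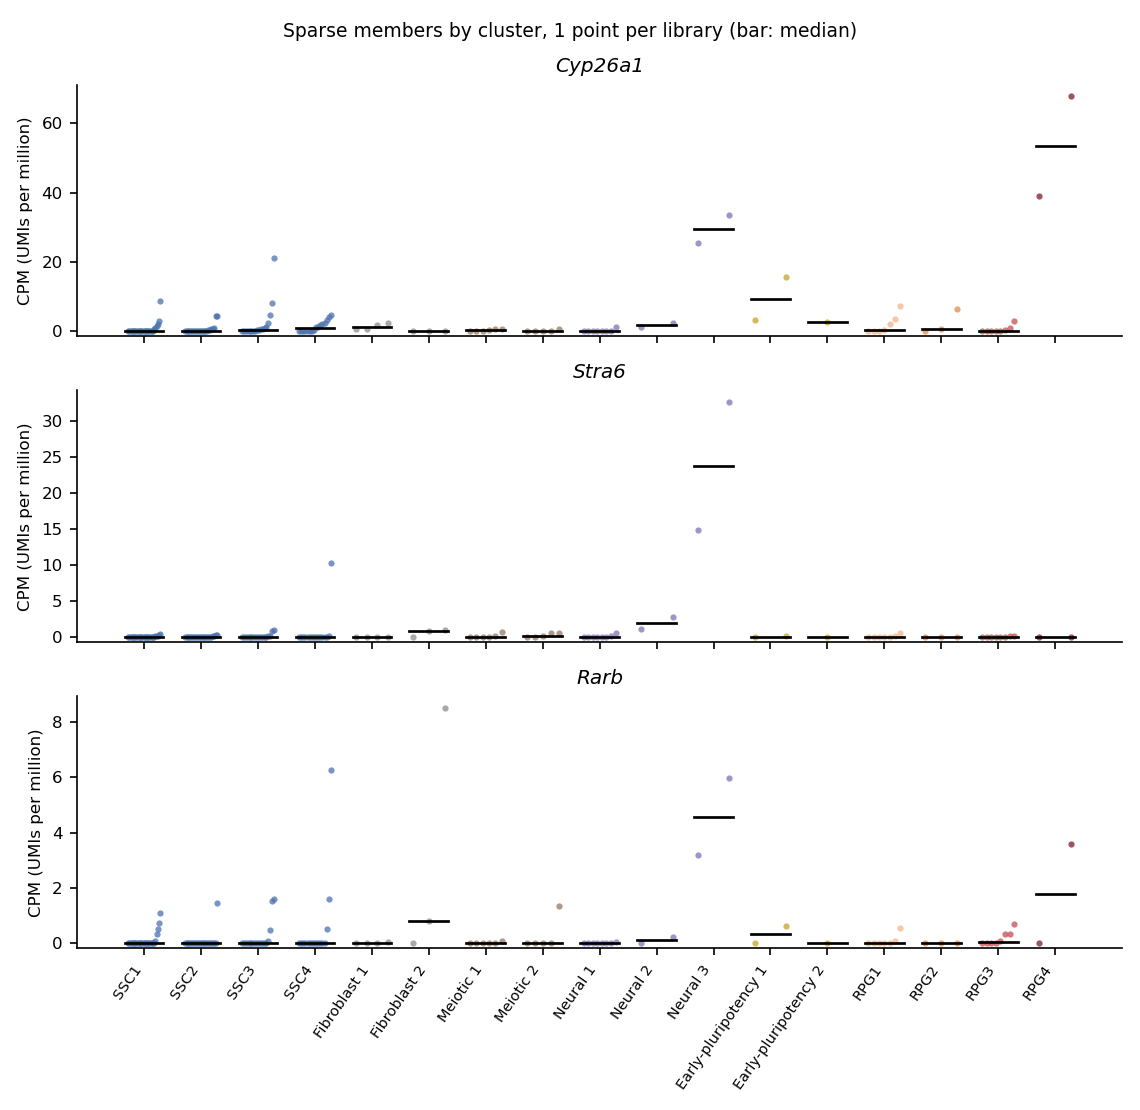
CPM of Cyp26a1, Stra6 and Rarb (linear y axes) by cluster (x axis), with 1 point per library and a bar at the median. Both Neural 3 libraries stand out for Stra6, at 32.5 and 14.8 CPM, and the RPG4 libraries for Cyp26a1, at 38.9 and 67.9 CPM.

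Cyp26a1 gave 2499 UMIs in 326 of 4464 cells, and 10 cells carried 44.2% of them. SSC libraries ran from 0 to 5.24 CPM (median 0.234), with 13 of 36 at 0. RPG4 held 38.9 CPM in day 20 library 1 and 67.9 CPM in day 20 library 2, both above every SSC library. By edgeR this was a rise of 5.72 ± 0.96 on the log2 scale against SSC (adjusted p = 1.22e-06), and of 6.38 ± 1.57 against RPG3 (0.00352), where libraries ran from 0 to 2.91 CPM.

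Almost all of these UMIs came from single cells. In library 1, 97 of 98 UMIs lay in 1 of 8 cells, and in library 2, 319 of 337 in 1 of 13. Without that cell the levels were 0.406 and 3.87 CPM and the change against SSC was 1.11 (edgeR adjusted p = 0.602), while the calls of Crabp1 and Aldh1a2 in RPG4 stayed. Over all 33 RPG4 cells, small sums included, 15 had a Cyp26a1 UMI (45.5%, exact interval 28.1 to 63.6%, median depth 345221 UMIs). They came from 3 of 8 libraries, with 2 of 8, 10 of 13 and 3 of 3 cells, and the other 5 libraries, of 1 to 3 cells each, had none. The share was 41.0% in Neural 3 (28.6 to 54.3%), 28.2% in Neural 2 (20.3 to 37.3%) and 17.6% in Early-pluripotency 1 (11.3 to 25.7%). It was 2.08% in SSC1 (1.22 to 3.31%), 9.72% in SSC3 (7.25 to 12.7%, median depth 378770 UMIs), 8.05% in RPG3 and 14.7% in RPG1. Depth differed between these clusters, and free RNA in a library can give UMIs to cells that do not express the gene, so their part in the low counts was not tested.

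In Neural 3 a single cell held most of the UMIs in each library, but less of them in the first. The cluster stood at 25.4 and 33.5 CPM of Cyp26a1 in its 2 libraries, where 1 cell held 194 of 276 and 135 of 147 UMIs, and at 7.79 and 2.92 CPM without it. In the first library 16 other cells held the remaining 82 UMIs. Among single SSC clusters the highest sum was 21.3 CPM, in an SSC3 sum of 6 cells with 46 UMIs. Day 27 library 1, an RPG4 library of only 3 cells that was not in the fit, had 120 of 123 UMIs in 1 cell.

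The 3 genes most like Cyp26a1 over the 82 sums were Cer1 (Pearson r = 0.69 of log2(CPM + 1)), which encodes a secreted Nodal and Wnt antagonist of anterior endoderm, Slc39a8 (0.69), a metal transporter, and Sox17 (0.67), an endoderm transcription factor. Sums share libraries, and the UMIs of these genes did not all lie in the same cells. In RPG4 of day 20 library 2 the cell richest in Cyp26a1 held 41 UMIs of Slc39a8, against 278 in 11 other cells, and in Neural 3 of day 27 library 2 it held 0 of Sox17, against 140 in 2 other cells. Looking at cells, chosen after their values were seen, the 4 cells with the most Cyp26a1 UMIs of all 4464 held 319, 194, 135 and 120 UMIs of it and 214, 114, 172 and 224 UMIs of Cer1. Only 6 cells had at least 20 Cer1 UMIs and 27 had at least 20 Cyp26a1 UMIs, and 4 had both. The cell next in rank, with 97 Cyp26a1 UMIs from day 20 library 1, had 3 of Cer1. It was much shallower, with 56690 UMIs in all against 220882 to 348404 in the 4 before it, so that by share of its UMIs it stood first of the 5.

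All 5 cells had 0 UMIs of Pou5f1, the central pluripotency factor, and 0 to 8 of Nanog, with 3 of the cells in RPG4 and 2 in Neural 3. Summed over the other RPG4 cells of the same 3 libraries there were 81, 87 and 24 UMIs of Pou5f1 and 462, 496 and 293 of Nanog, and over the other Neural 3 cells of those 2 libraries only 7 and 0 of Pou5f1 and 20 and 8 of Nanog. Sox17 was high in only 1 of the 5, with 168 UMIs. Each is 1 cell, so no test applies.

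The 3 sums of early-pluripotent cells, which were not part of the planned comparisons, held 2.48, 15.6 and 3.27 CPM of Cyp26a1, 68.7, 166 and 176 CPM of Crabp1 and 25.6 to 30.5 CPM of Rarg. All 3 lay below every SSC library for Crabp1. Cyp26a1 gave no UMI in the gPSC or embryonic stem cell libraries, which at 3 counts allows up to 0.214 CPM at passage 1, 0.277 CPM at passage 15 and 0.203 CPM in embryonic stem cells.

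**Figure D4:**
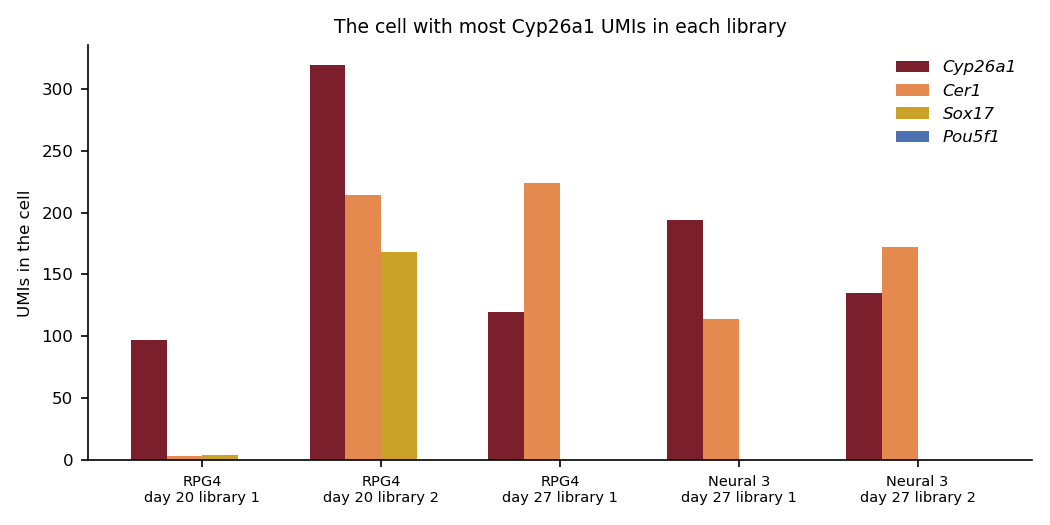
UMIs of Cyp26a1, Cer1, Sox17 and Pou5f1 (linear y axis) in the cell with most Cyp26a1 of 3 RPG4 and 2 Neural 3 libraries (x axis). In 4 of the 5 cells Cer1 stands at 114 to 224 UMIs, and Pou5f1 is at 0 in all 5, so its bars have no height.

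Cyp26b1, which in the fetal testis keeps retinoic acid from germ cells, gave 318 UMIs in 51 cells, 76 of them (23.9%) in 1 Neural 1 cell. It did not exceed 3.16 CPM in any of the 82 class sums, reached 10.2 CPM (31 UMIs) in a Meiotic 1 cluster sum of 8 cells, was at 0 in all 7 RPG1 and both RPG4 sums, and was called in no class. In RPG1 its unadjusted p was 0.00471 (edgeR adjusted p = 0.0769), and in RPG3, with 2 UMIs in all, it was called lower only without day 23 library 2 (-4.29, 0.024).

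The members were not alike in pattern. Over the 82 sums, the closest pair was Crabp1 with Aldh1a2 (r = 0.71), and Rarg went the other way from Aldh1a2 (r = -0.40). The genes most like Crabp1 were Mael (r = 0.90), Gtsf1 (0.89) and Taf7l (0.89), the first pair of which act in the piRNA pathway of germ cells. Those most like Aldh1a2 were Arhgef33 (0.82), Xlr (0.82) and Mapk10 (0.81), and those most like Rarg were Sept1 (0.69), Sgk1 (0.66) and Ostf1 (0.65). Stra6 went with the protocadherins Pcdhb17 (0.93) and Pcdhb16 (0.92) and with Hoxd3 (0.92). Crabp2 had no close partner, with Fam124a (0.57), Wdr77 (0.55) and Znhit6 (0.55) first. Rarb went with Nrn1 (0.64), Pax9 (0.62) and Pcdhb22 (0.61), and Cyp26b1 with Gm28641 (0.55), Fgf22 (0.54) and Zp3r (0.53). These values come from sums that share libraries and class.

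Of 12 genes known to respond to retinoic acid, RPG3 had 1 higher and 6 lower, with a median log2 fold change of -1.83 against -0.25 for all genes, and 56.8% of all genes were called there. Stra8, the gatekeeper of meiosis, ran from 22.5 to 282 CPM in SSC and from 0 to 19.4 CPM in RPG3, a fall of 4.66 ± 0.52 (edgeR adjusted p = 9.62e-13). Gm4969 stood at no more than 0.449 CPM in RPG3 against a median of 4.62 CPM in SSC (-5.86 ± 0.94, 9.55e-08). Cdx1, a caudal homeobox gene, rose by 2.64 ± 0.75 (0.00192), from a median of 0.310 to 4.22 CPM.

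RPG4 had 0 higher and 4 lower of the 12, with a median of -4.89 against -0.54 for all genes, of which 27.7% were called. Both RPG4 libraries had no UMI of Hoxb1, whose SSC median was 13.9 CPM. RPG2 had 2 higher and 4 lower (median -2.33 against -0.52, 36% of all genes called). Kit, the stem cell factor receptor, rose there by 1.74 ± 0.39 (0.000145) and Cdx1 by 3.49 ± 0.97 (0.00248), while Meis2 was at 0 in all 3 libraries and Gm4969 at no more than 0.237 CPM. RPG1, where 4.61% of all genes were called, had 0 higher and 2 lower, Stra8 by 2.89 ± 0.47 (9.57e-06) and Nr2f2, which was at most 0.227 CPM there. Stra8 is also 1 of the 4 genes summed here as meiotic markers.

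The neural class had 4 of the 12 higher and 0 lower, with a median of 1.001 against -0.01 for all genes, of which 10.7% were called. Nr2f1 rose by 3.21 ± 0.69 (edgeR adjusted p = 0.00056) and Meis2 by 3.11 ± 0.57 (4.42e-05), with medians over 12 libraries of 0 and 5.75 CPM and highest values of 66.6 and 126 CPM. Nr2f1 was at 0 in 7 of the 12 libraries and is itself among the 4 markers used for that class. The fibroblast class had 1 higher, Nr2f2, at 0 to 87.7 CPM against at most 4.95 CPM in SSC (4.35 ± 0.76, 6.84e-06), and the meiotic class had none of the 12 called by edgeR, with 1 at an unadjusted p below 0.05. Feeder or stromal markers moved with both classes, with 7 of 8 called higher in fibroblast sums (median 4.64) and 1 of 8 in neural sums (median 0.90), where 1 of 5 Sertoli markers was also called higher, and their part was not tested.

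Of 19 other genes of retinoid transport and metabolism 18 were tested. RPG3 had 6 higher and 9 lower, with a median log2 fold change of -0.74 against -0.25 for all genes, of which 25.2% were called higher and 31.5% lower. Dhrs4, a reductase that acts on retinaldehyde, rose by 3.58 ± 0.31 (edgeR adjusted p = 6.15e-18), from a median of 6.96 to 79.7 CPM. Ttr, which carries retinol-binding protein in blood, passed the test on levels of at most 1.27 CPM. Lrat, which stores retinol as esters, was at 0 in all 8 libraries, as was Cyp26c1, and SSC reached 4.80 and 2.71 CPM.

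RPG2 had 5 higher and 5 lower (median 0.24, 36% of all genes called). Dhrs4 rose by 4.14 ± 0.39 (3.44e-15), Adh7 passed the test on 1 library with 12.2 CPM and the others at 0, and Lrat and Stra6l were at 0 in all 3 libraries. RPG4 had 5 higher and 2 lower (median -0.84, 27.7% of all genes called). Fabp5, which can carry retinoic acid to other nuclear receptors, rose by 4.56 ± 0.44 (1.66e-14), to 348 and 461 CPM from a median of 16.5, and Rbp4 fell by 2.76 ± 0.54 (2.80e-05). Cyp26c1 was called on 4.83 CPM in 1 of the 2 libraries and 0 in the other, and Bco1 was at 0 in both.

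RPG1 had none of these 18 genes called by edgeR (2 at an unadjusted p below 0.05), nor had the meiotic class (6). The neural class had 1 higher, Fabp5 (1.06 ± 0.30, 0.0143), and 2 lower, Aldh1a3 (-1.98 ± 0.54, 0.00901) and Cyp26c1, which was at 0 in all 12 libraries. The fibroblast class had 2 higher, the alcohol dehydrogenase gene Adh1 (6.01 ± 0.85, 3.91e-08), at 3.18 to 43.3 CPM, and Aldh1a1 (4.35 ± 0.77, 9.29e-06), at 0.267 to 73.7 CPM. Feeder or stromal markers, 7 of 8 called higher in that class, moved with them, and their part was not tested.

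Between RPG3 and RPG2, where 5.98% of all genes were called, 2 of the 18 genes were lower, among them Cyp26c1 (at 0 in RPG3), and 3 of the 12 responsive genes were lower, with Stra8 (-2.34 ± 0.64, 0.0149) and Rec8 (-2.28 ± 0.43, 0.000161) moving most. Between RPG4 and RPG3, where 8.93% of all genes were called, 4 of the 18 were higher, with Fabp5 at 2.99 ± 0.65 (0.000798) and Cyp26c1 moving most, and none of the 12 was called by edgeR (4 at an unadjusted p below 0.05).

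The 10 receptors and cofactors that were no members had 5 higher and 2 lower in RPG3, 4 and 0 in RPG2, 1 and 0 in RPG4, 2 and 0 in the neural class and 0 in RPG1, fibroblast and meiotic sums by edgeR (1, 2 and 2 at an unadjusted p below 0.05). Of all genes, 56.8% were called in RPG3, 36% in RPG2, 27.7% in RPG4 and 10.7% in the neural class. The coactivator gene Ncoa1 rose by 3.99 ± 0.46 in RPG3 (2.72e-12) and by 4.38 ± 0.58 in RPG2 (1.34e-09). Nrip1, a corepressor, rose by 2.56 ± 0.58 in RPG3 (0.000119), by 3.74 ± 0.74 in RPG2 (2.29e-05), by 3.24 ± 0.90 in RPG4 (0.00357) and by 1.58 ± 0.54 in the neural class (0.044). In RPG3 the receptor Rxra fell by 0.89 ± 0.33 (0.0179), and in the neural class Rara rose by 0.48 ± 0.15 (0.0241). The only call between RPG4 and RPG3 was Ncoa3 (-1.89 ± 0.41, 0.000872), and between RPG3 and RPG2 edgeR made none (2 at an unadjusted p below 0.05).

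The second data set asked how SSCs under 5C differ from those under DMSO. Crabp1 was far lower under 5C. In cells classed as SSC it stood at 15.5, 59.0, 32.7, 33.7, 27.5, 20.5, 38.7 and 68.7 CPM in 5C samples 1 to 8, and at 397, 354 and 304 CPM in DMSO samples 3 to 5, with no overlap. The fall was 3.26 ± 0.25 on the log2 scale, a level 9.55 times lower (edgeR adjusted p = 8.3e-09), and it held without each sample in turn. Of the 4 members tested there, 2 were called, both lower, against 21.3% of all genes. SSC markers did not fall with it, at 1498 to 2019 CPM under 5C and 1565 to 1816 CPM under DMSO, while the pluripotency markers summed to 65.4 to 196 CPM under 5C and 9.84 to 45.9 CPM under DMSO.

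The chemicals and the day cannot be told apart here. The 5C samples were taken on days 12, 14 and 16, and DMSO samples on days 20 and 24, with 8 cells of day 0 in DMSO sample 5. In the STRT-seq libraries with no chemical, SSC libraries of days 12, 14 and 16 held 208 to 381 CPM of Crabp1. These are another technique and are given side by side, with no test.

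**Figure D5:**
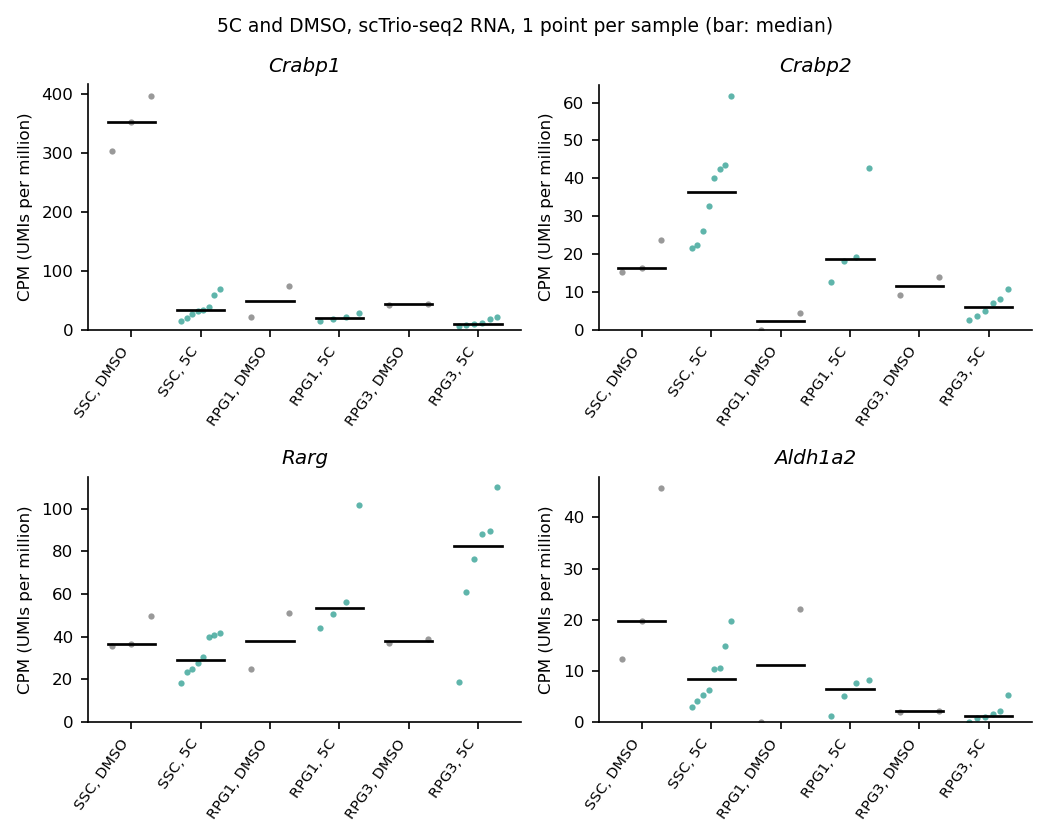
CPM of Crabp1, Crabp2, Rarg and Aldh1a2 (linear y axes) under DMSO (grey) and 5C (green) in SSC, RPG1 and RPG3 cells (x axis), with 1 point per sample and a bar at the median. Crabp1 in SSC parts without overlap, with 304 to 397 CPM under DMSO and 15.5 to 68.7 CPM under 5C.

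Crabp1 was lower under 5C in RPG3 cells too. The 6 samples with at least 5 such cells held 21.4, 6.75, 18.9, 8.18, 10.9 and 9.82 CPM, and DMSO samples 1 and 2 held 44.4 and 42.7 CPM. The fall was 2.14 ± 0.43 (edgeR adjusted p = 0.00313), 1 of 3 members tested against 15.6% of all genes called. It missed the threshold without either DMSO sample (-2.12, 0.0676 and -2.199, 0.0628), where 1 sample was assumed to vary like the others. The 5C samples with lower Crabp1 held more SSC marker RNA, 105 to 377 CPM against 45.1 and 52.4 CPM, whose part in the result was not tested.

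RPG1 cells gave 15.02, 28.04, 18.7 and 21.9 CPM of Crabp1 under 5C against 74.1 and 22.2 CPM under DMSO, with overlap (-1.38 ± 0.65, edgeR adjusted p = 0.213). None of the 3 members tested in RPG1 was called by edgeR (5.61% of all genes called), with Crabp1 and Crabp2 at an unadjusted p below 0.05, and DESeq2 called 0. Over all cells of a sample, Crabp1 fell by 2.98 ± 0.41 (0.000954), 1 of 4 members tested against 15% of all genes. That comparison mixes classes, since DMSO samples 1 and 2, with 51.7 and 45.5 CPM, were 97.7% and 95.6% RPG cells and samples 3 to 5, with 395, 334 and 314 CPM, were 78.3 to 84.9% SSC. In all-cell sums, fewer cells of a class and less RNA per cell cannot be told apart.

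Crabp2 lay higher under 5C in SSC, short of a call, and its effect of 5C differed between classes. In SSC it stood at 21.5 to 61.7 CPM under 5C against 15.1, 16.4 and 23.6 CPM under DMSO (0.94 ± 0.35, edgeR adjusted p = 0.0577), and DESeq2 called it (0.92, 0.0424). In RPG3 it was at 2.54 to 10.8 CPM under 5C against 14.02 and 9.16 CPM under DMSO (-1.31 ± 0.68, 0.22). The effect of 5C in RPG3 minus that in SSC was -2.25 ± 0.66 on the log2 scale (0.0264), the only call among 4 members tested for this difference, against 9.63% of all genes. It was lost with total counts (-1.85, 0.0577), and without DMSO sample 1 (-1.90, 0.183), 2 (-2.54, 0.0541), 3 (-2.14, 0.0618) or 4 (-2.16, 0.0739) or 5C sample 8 (-1.98, 0.0597). The DMSO samples behind the 2 classes are not the same ones. In RPG1, Crabp2 was at 12.7 to 42.8 CPM in 4 samples under 5C against 0 and 4.44 CPM (2 UMIs) under DMSO, not called.

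Aldh1a2 fell in SSC under 5C by 1.49 ± 0.51 (edgeR adjusted p = 0.0368), from 12.3, 45.7 and 19.7 CPM under DMSO to 2.85 to 19.8 CPM, with overlap. The call turned on DMSO sample 4, without which it was -0.83 (0.436). It also missed the threshold without DMSO sample 5 (-1.64, 0.0689) or 5C sample 1, 7 or 8 (0.0536, 0.054 and 0.0584). Rarg was not called under 5C. It stood in SSC at 18.5 to 41.6 CPM against 35.7, 36.5 and 49.8 CPM (-0.44, 95% interval -1.02 to 0.13), and in RPG3 18.6 to 110 CPM against 39.2 and 37.0 CPM (0.55, interval -0.28 to 1.37).

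Cyp26a1 was too sparse to be tested in these samples. No UMI of it was found in any DMSO sample, and 7 of 8 samples under 5C had 1 to 27, up to 2.76 CPM in sample 1, all 27 of whose UMIs lay in its 32 RPG3 cells. RPG4 could not be compared, with 1 sample of 5 cells under 5C. There Crabp1 was at 3.67 CPM (2 UMIs), against 89.2 and 63.0 CPM in the RPG4 cells of DMSO samples 1 and 2.

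Of the 10 receptors and cofactors, 5 were higher and 0 lower in SSC under 5C, with a median of 0.996 against 0.02 for all genes, of which 21.3% were called. Nrip1 was at 0 to 20.1 CPM under 5C and at most 0.303 CPM under DMSO. Rxrg, a retinoid X receptor, rose by 2.47 ± 0.65 (edgeR adjusted p = 0.00806), from 1.51 to 6.15 CPM under DMSO to 7.63 to 36.3 CPM. In RPG3, where 15.6% of all genes were called, 3 of 9 were higher, led by Rxra (3.20 ± 0.73, 0.00745), at 11.3 to 40.5 CPM against 1.09 and 2.199 CPM, and Ncoa1 (1.41 ± 0.45, 0.0452). Over all cells, with 15% of all genes called, 4 were higher, led by Rxrg (3.11 ± 0.74, 0.0125), and in RPG1 edgeR called none of 9 (2 at an unadjusted p below 0.05). The scaling bears on these shares. Of all genes called in RPG3, 40.7% were higher with TMM and 80.1% with total counts, and over all cells 51.0% and 75.7%.

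None of the 10 transport genes tested and none of the 7 responsive genes tested was called in SSC under 5C by edgeR, with 0 and 2 at an unadjusted p below 0.05. Over all cells none of 10 and none of 6 was called (1 and 1), and in RPG1 none of 5 and none of 4 (1 and 0). In RPG3 2 of 9 transport genes and 1 of 6 responsive genes were called. Dhrs4 fell by 1.64 ± 0.44 (edgeR adjusted p = 0.019), and Rdh10 and Cdx1 passed the test at up to 8.72 and 11.2 CPM under 5C with no UMI in either DMSO sample. The effect of 5C differed between RPG3 and SSC for 2 of 10 transport genes, 1 of 10 receptors and cofactors and 2 of 10 responsive genes, with 9.63% of all genes called, namely for Rdh10, for Dhrs4 (-3.15 ± 0.86, 0.0164), Rxra (2.74 ± 0.61, 0.00308), Cdx1 and Kit (3.59 ± 1.12, 0.0366).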

How the data were processed

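Single-cell RNA was read by modified STRT-seq and by scTrio-seq2, and cell barcodes and UMIs were used by the authors to make the deposited UMI count tables, with no normalization. The submitters' processing notes name STAR 2.7.2b, featureCounts 2.0.0 and the mm10 build. How strand was handled is not given in the sources used here. The deposited tables hold cells that the authors had already filtered, and no further cell was removed here. Doublets were not called, since cells were picked singly. Cell classes come from the authors' deposited metadata (STRT-seq) and their predicted classes (scTrio-seq2), where 48 cells had none. The methylation samples were not used here, and neither were columns of comparisons.

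The UMIs of all cells that 1 library had in 1 class were added up where there were 5 or more. These sums were fitted with edgeR 4.0.16 (filterByExpr, TMM, glmQLFit and glmQLFTest, R 4.3.3), all 9 STRT-seq classes in 1 model, and p-values were adjusted by Benjamini-Hochberg over all genes. The fit was tested on simulated data with 100 changed genes. For RPG4 against SSC it recovered 24% of 2-fold and 43% of 4-fold changes, and for RPG3 against SSC 51% and 71%. For 5C against DMSO in SSC it recovered 58% and 89%. A change in RPG4 can thus easily go uncalled. STRT-seq classes share libraries, so the library served there as an alternative block. Alternatives were DESeq2 1.42.0, its size factors, no filter, at least 10 cells, batch as covariate, sums per batch and day, only the classes compared, and each library left out. CPM carries no scaling factor. Exact Clopper-Pearson intervals (95%) and the limit of 3 counts cover counting error only. 5C and DMSO samples held 5881566 to 10724925 and 3889964 to 8062911 UMIs. Python 3.11.15 and pandas 2.3.3 were used for levels.

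The 8 members and the lists of other genes were chosen with earlier results of these data known. The genes named are the members, and per list and comparison at most the 2 genes higher and the 2 lower with the largest called change, and the 3 genes most like each member. Marker sums and genes like a member describe the sums only. Values of some list genes that this rule would name are not reported here, and the counts of the lists include them.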

Additional observations from a re-analysis of the deposited data

Results flagged for a closer look

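Among 44 groups of 4 to 10 samples, 3 had 1 sample far from the others by Dixon's criterion, and chance gives about 1 in 20. Crabp2 stood at 158 CPM in the meiotic cells of day 16 library 4, against a group median of 85.5 CPM. Cyp26b1 stood at 1.74 CPM in the meiotic cells of day 16 library 5, against a median of 0.023 CPM. Rarg stood at 53.2 CPM over all cells of DMSO sample 5, against a median of 38.6 CPM.

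The effect of 5C on Crabp2 differed between RPG3 and SSC by -2.25 on the log2 scale (edgeR interaction term, adjusted p = 0.0264), and the DMSO samples that give the 2 classes are different ones. Rarb in gPSCs at passage 1, a library outside the comparisons, stood at 2.56 CPM, above the highest SSC library at 1.76 CPM, and all 36 of its UMIs lay in 1 of 48 cells.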

How the results depend on the processing

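The counts of members called in fibroblast (0), RPG2 (3), RPG3 (3), RPG4 (3), 5C RPG1 (0) and 5C RPG3 (1) moved by no more than 1.5 times in any alternative other than a left-out library. In meiotic sums 1 member was called with the library as replicate block, with at least 10 cells and with only the 2 classes compared, against 0. In neural sums 0 were called with the library block, DESeq2, only the 2 classes and without the Neural 3 cells, against 1. In RPG1, 0 were called with the library block and 1 with sums per batch and day, against 2, and Crabp2 changed sign to 0.16 and 0.66. Between RPG3 and RPG2, 2 were called with the library block and 0 with sums per batch and day or only the 2 classes, against 1. Between RPG4 and RPG3, 1 was called with total counts, the library block or at least 10 cells, against 3. For 5C over all cells 2 were called with no filter and 0 with the replicate block, against 1, and in SSC 4 and 1, against 2, where the block left Crabp1 called and Aldh1a2 at -1.13 (edgeR adjusted p = 0.248). The shared numbers of 5C and DMSO samples were not taken as pairs, since over all cells same-numbered samples deviated with correlations of 0.316, -0.477, 0.227, 0.383 and -0.491, so that not every sample went best with its own number. The replicate block could not be fitted for 5C in RPG1 and RPG3. The cause of these moves was not tested, except that fewer cells or samples enter some of them.

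With each library left out in turn, the counts ran from 1 to 3 for RPG4 against RPG3, 1 to 3 for 5C in SSC, 0 to 1 for 5C in RPG3, 0 to 1 for the difference between RPG3 and SSC, 2 to 3 for RPG2, 3 to 4 for RPG3 and 2 to 3 for RPG4. Total counts, RPG4 without its cell richest in Cyp26a1, and neural sums without Neural 3 cells were chosen after seeing the data. With total counts in place of TMM the median of all genes under 5C moved from 0.08 to 0.51 in RPG3. Rarb, Cyp26b1, Stra6 and Cyp26a1 each had most sums at 3 UMIs or fewer, which limits the precision of their changes.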
